A study of Mus musculus with 2 samples.

Results

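The renin-angiotensin system was followed through 9 mouse genes: Ren1, Agt, Ace, Agtr1a, Agtr1b, Mas1, Enpep, Atp6ap2 and Mme. Their probes were taken from an Agilent 1-colour expression array by matching the accession printed with each probe to RefSeq transcripts. The match gave 11 of the 39429 gene probes, with 2 probes each for Mas1 and Mme and 1 for each other gene. TG+STZ mice carried, per their labels, a transgene that overexpresses Sirt1, a deacetylase that uses NAD. WT+STZ mice were wild type. All were male on a C57BL/6J strain background and were given streptozotocin (STZ), which destroys beta cells and so causes diabetes, when 8 weeks old. The drug was dissolved in citrate buffer of 100 mmol/l, and the kidneys were taken at 32 weeks. The RNA of each group, from dissected glomerular regions, was read on 1 array. Both groups were treated with STZ, and no untreated mice were analysed here. The promoter of the transgene, the number of mice behind each array and whether they were pooled are not given in the sources used here.

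Angiotensinogen, the product of Agt, is cut by renin to angiotensin I, and angiotensin-converting enzyme (ACE) shortens this to angiotensin II. Angiotensin II acts through the AT1 receptors, encoded in mice by Agtr1a and Agtr1b, to constrict vessels and retain sodium. Aminopeptidase A, the product of Enpep, and neprilysin, the product of Mme, degrade or convert angiotensin peptides, and the product of Mas1 is a receptor for angiotensin-(1-7). In the kidney, renin is made by juxtaglomerular cells at the glomerular entrance, while the brush border of the proximal tubule carries several of the peptidases. Blockers of this system are used to lower albumin loss in diabetic kidney disease.

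With 1 array per group, no difference had a replicate check and no test between the groups was possible. Of the 43020 spots of gene probes, 76.3% lay well above background on the TG+STZ array and 75.04% on the WT+STZ array, and none was saturated. Signals were scaled to each array's 75th percentile, 2042 units in TG+STZ and 1933 units in WT+STZ. Every difference below is TG+STZ minus WT+STZ of the scaled log2 signal. Its error (±) is that of the scanner software for the hybridisations compared. For a mean over several probes it takes the probes as independent, so such genes have smaller errors. Among the 10 detected renin-angiotensin probes it ran only from 0.204 to 0.205. The median SD of repeated spots within an array was 0.05 (314 probes), and the scaled differences of 8 spike-in probes ran from -0.05 to 0.05. The error leaves out the spread between mice, as do these values. Sirt1 read 2977 units in TG+STZ and 2625 in WT+STZ (0.10 ± 0.20), and whether its probe also reads the transgene was not tested, so it gave no check of the labels.

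The renin-angiotensin genes read nearly the same on both arrays. Of the 11 probes, 10 were well above background on both arrays, covering 8 genes, and the Agtr1b probe was not. The 10 differences ran from -0.196 for Ren1 to 0.203 for Enpep, with a median of 0.04. None of the 10 passed 1.5-fold (0.58 on the log2 scale) in either direction. Over all 28993 probes detected on both arrays, 2.01% were 1.5-fold or more higher in TG+STZ and 2.18% were 1.5-fold or more lower, so a count of 0 among 10 probes is close to that background. All 10 differences lay within the scanner error of 0 under this scaling. By gene, 8 of 8 did, against 76.3% of all genes with a probe detected on both arrays. Under other scalings some did not: Enpep stood at 0.23 with centring on the median, and Ren1 at -0.22 with the 75th percentile taken over detected probes. Of the 10, 8 stood above 0 and 2 below, while 49.97% of all detected probes stood above 0. This split depended on the scaling. Under quantile normalization 6 stood above 0 and 4 below, and with centring on spike-ins 9 stood above and 1 below.

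**Figure D1:**
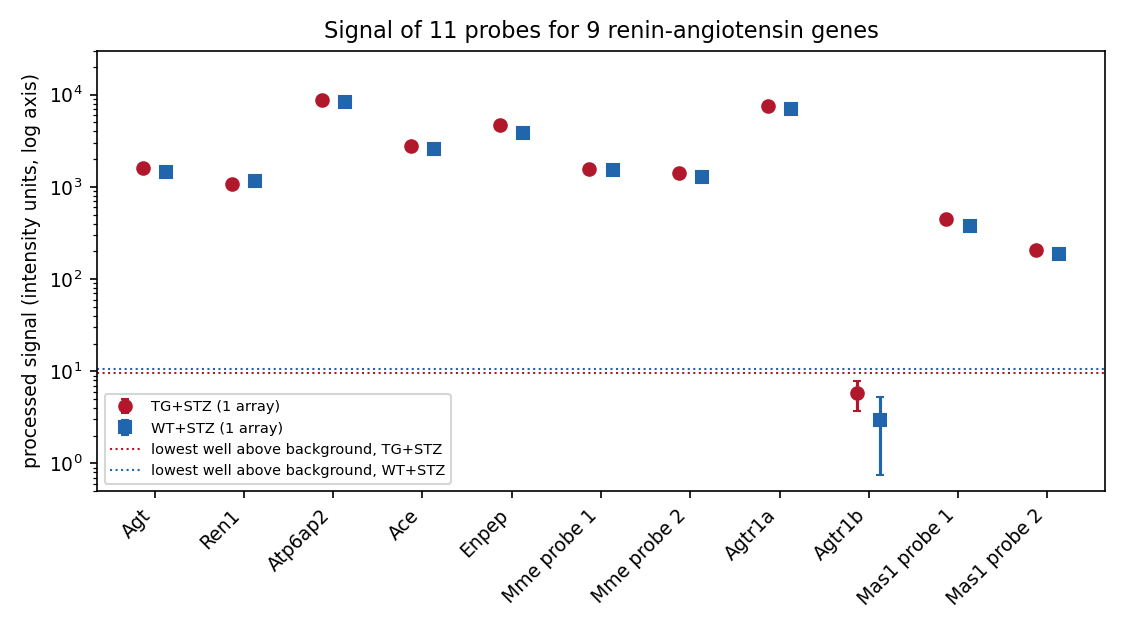
Processed signal (intensity units, log axis) of each of the 11 probes on the TG+STZ array (circles) and the WT+STZ array (squares), with the scanner software's error as bars, mostly smaller than the symbols, and dotted lines at the lowest signal counted as well above background on each array. The pairs of the 10 other probes lie close together and far above both dotted lines, the Agtr1b pair lies below them, and signals of different probes are not comparable as transcript levels.

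Agt encodes the precursor of all angiotensin peptides. It read 1595 ± 160 units in TG+STZ and 1469 ± 147 units in WT+STZ. After scaling, the difference was 0.04 ± 0.20, or 1.03-fold, and 61.6% of all detected probes had a lower difference. Fat cells and the proximal tubule are further known sources of angiotensinogen. Fat cell markers were far higher on the TG+STZ array: Cfd, a secreted protease, read 1225 units in TG+STZ and 41.2 in WT+STZ (4.82 ± 0.22), and Retn, the hormone resistin, 218 units in TG+STZ and 28.9 in WT+STZ (2.84 ± 0.24). Adipoq, Plin1 and Ucp1 were well above background in TG+STZ alone, at least 13.9-fold, 4.17-fold and 24.5-fold higher, where each bound sets the TG+STZ signal against the lowest signal well above background, or the probe's own if higher, in WT+STZ. The sixth marker, Fabp4, which is also made by endothelium, stood at 0.34. Summed over the 3 fat markers detected on both arrays, the signal was 16821 units in TG+STZ and 11573 in WT+STZ, nearly all of it Fabp4, and without Fabp4 it was 1442 units in TG+STZ and 70.1 in WT+STZ. Summed signals here and below are unscaled, and the scaling lowers TG+STZ by 0.08 relative to WT+STZ on the log2 scale. Their part in the Agt value was not tested.

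Ren1 encodes renin, which makes the first cut of angiotensinogen. It read 1069 ± 106.9 units in TG+STZ and 1160 ± 116 units in WT+STZ. The scaled difference, the lowest of the 10, was -0.196 ± 0.20, or 1.15-fold lower in TG+STZ, and 15.1% of all detected probes had a lower one. The interval of 1 scanner error ran from -0.40 to 0.01. The difference was thus within the scanner error under this scaling, though not under every other one. With 1 array per group, no decrease in renin RNA was shown. In RNA from whole tissue pieces, a change in renin cell number cannot be told apart from one in renin RNA per cell.

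A further probe carries the accession of Ren2, a renin gene nearly identical to Ren1 that some mouse strains carry beside it, whereas C57BL/6 mice are known for having Ren1 alone. Ren2 is outside the 9 genes and was added after its values had been seen. Its probe read 12591 ± 1259 units in TG+STZ and 13194 ± 1319 units in WT+STZ, well above background on both arrays. The difference was -0.15 ± 0.20, or 1.11-fold lower in TG+STZ, on the same side of 0 as Ren1 and likewise within the scanner error. Probe sequences were not used here, so whether either probe reads transcripts of both renin genes was not tested, and the values may not be separate measures. Which RNA gave the signal of the Ren2 probe was not tested either, so it does not show that Ren2 was expressed in these mice.

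Atp6ap2 encodes the prorenin receptor, which is also an accessory protein of the vacuolar proton pump and is made by nearly all cells. It read 8808 ± 881 units in TG+STZ and 8302 ± 830 units in WT+STZ. The difference of 0.01 ± 0.20 was the smallest of the 10, and its sign depended on the scaling.

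Ace encodes angiotensin-converting enzyme, carried by endothelium and the proximal tubule brush border. It read 2804 ± 280 units in TG+STZ and 2554 ± 255 units in WT+STZ, a difference of 0.06 ± 0.20. RefSeq lists several Ace transcripts, and the single probe does not separate them.

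Enpep encodes aminopeptidase A, which turns angiotensin II into angiotensin III and is known in the kidney from podocytes and the brush border. It had the highest difference of the 10 probes. Its signal was 4717 ± 472 units in TG+STZ and 3879 ± 388 units in WT+STZ. The difference was 0.203 ± 0.204, or 1.15-fold higher in TG+STZ, and 89.4% of all detected probes had a lower one. Anpep, which encodes aminopeptidase N of the same brush border, was the highest of the other renin-angiotensin genes at 0.29 ± 0.20 (32205 units in TG+STZ and 24989 in WT+STZ).

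Mme encodes neprilysin, an endopeptidase that cleaves angiotensins, kinins and natriuretic peptides. Its first probe read 1578 ± 158 units in TG+STZ and 1514 ± 151 in WT+STZ, and its second 1403 ± 140 units in TG+STZ and 1286 ± 129 in WT+STZ. The differences were -0.02 and 0.05, on opposite sides of 0 and 0.07 apart. Their mean was 0.01 ± 0.14.

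Agtr1a encodes the main AT1 receptor of the mouse kidney, found on mesangial and vascular smooth muscle cells and on tubule epithelium. It read 7499 ± 750 units in TG+STZ and 7039 ± 704 units in WT+STZ, a difference of 0.01 ± 0.20. Agtr1b, the second AT1 gene of the mouse, read 5.83 ± 2.09 units in TG+STZ and 2.98 ± 2.24 units in WT+STZ. The lowest signals counted as well above background were 9.70 units in TG+STZ and 10.6 in WT+STZ, so Agtr1b was not well above background on either array and no fold is given. Of the AT1 receptor genes, Agtr1a was thus the one measured here. Agtr2, which encodes the AT2 receptor, was likewise not well above background, at 7.17 units in TG+STZ and 7.03 in WT+STZ.

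Mas1 was detected by both its probes, which carry the same accession. One read 449 ± 45 units in TG+STZ and 373 ± 37 in WT+STZ, and the other 205 ± 21 units in TG+STZ and 185 ± 19 in WT+STZ. The differences were 0.19 and 0.07, both above 0, and their mean was 0.13 ± 0.14. Mrgprd, the gene of another receptor for angiotensin-related peptides, was not well above background on either array, at 2.01 units in TG+STZ and 3.16 in WT+STZ.

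**Figure D2:**
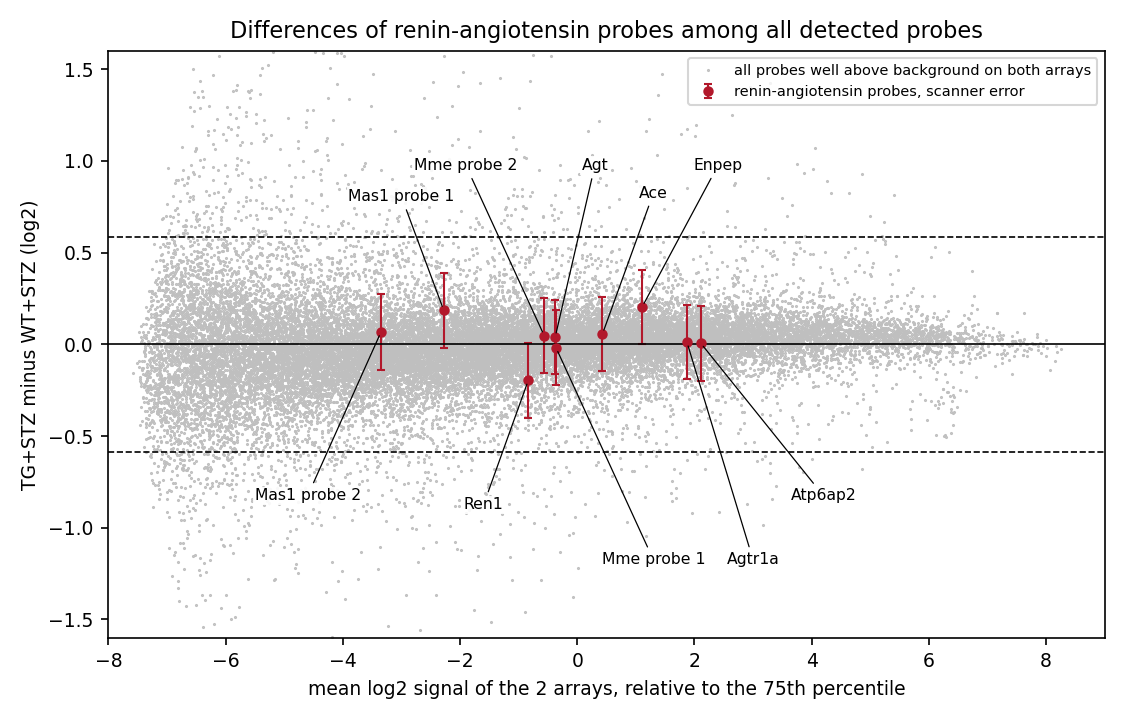
Difference TG+STZ minus WT+STZ (log2) against the mean scaled log2 signal for all 28993 probes detected on both arrays (grey) and the 10 detected renin-angiotensin probes (red, with the scanner error as bars); dashed lines mark 1.5-fold, and 130 grey probes lie beyond the drawn range. The red points run from -0.196 to 0.203, inside the grey cloud and inside the dashed lines.

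The position of the 10 probes within the array was also described by the spread of all probes. The middle 95% of all detected probes lay between -0.55 and 0.52, and 74.4% of them were within 0.20 of 0. Among the detected probes brighter than the median one, 85.8% were within 0.20 of 0, and 1.01% passed 1.5-fold upward in TG+STZ and 0.8% downward. Of the 10 renin-angiotensin probes, 7 lay within 0.10 of 0, against 49.5% of all detected probes, the others being Ren1, Enpep and the brighter probe of Mas1. The 49.5% includes the dimmer probes, which spread more widely, and the share within 0.10 among brighter probes is not given.

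Other enzymes and receptors of the system also lay close to 0. The gene values below are means over the detected probes of a gene. Of 21 such genes, 16 were measured on both arrays, with a median of -0.003, 7 above 0 and 9 below. None passed 1.5-fold, against 1.75% of all 15971 measured genes higher and 1.91% lower, and the median of all genes was 0.00. Beside Anpep, the ends of this list were Ctsg, a neutrophil protease that can release angiotensin II, at -0.13 ± 0.25 and Cltrn, which encodes collectrin, at -0.08 ± 0.14. The mast cell genes Cma1 (chymase, another enzyme that forms angiotensin II) and Cpa3 were not well above background on either array. Mcpt4, a further mast cell chymase, was well above background in TG+STZ alone, at least 1.26-fold higher (14.1 units in TG+STZ and 6.08 in WT+STZ).

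Of 15 measured genes that bear on renin release, 12 stood below 0 and 3 above, with a median of -0.13. Of the 15, 9 were within the scanner error of 0, as Ren1 was, and none passed 1.5-fold. Over all measured genes, 49.1% stood below 0 and 76.3% were within the scanner error. Adcy5, an adenylyl cyclase that makes the cyclic AMP driving renin release, came closest to the 1.5-fold threshold, at -0.58 ± 0.12. It read 91.5 units in TG+STZ and 122 in WT+STZ, and its 3 probes ran from -0.86 to -0.32. With the 75th percentile taken over detected probes, Adcy5 passed 1.5-fold. Gja4, a connexin of vessel walls, stood at -0.31 ± 0.20, and Gja5, the connexin of renin cells, at -0.25 ± 0.20 from 1 of its 2 probes. Ptger4, a prostaglandin E receptor, was highest at 0.10, followed by Nr1h3, the nuclear receptor LXR alpha, at 0.05. Akr1b7, an aldo-keto reductase made with renin in juxtaglomerular cells, stood at -0.04, with 667 units in TG+STZ and 651 in WT+STZ. Nos1, the nitric oxide synthase of the macula densa, was not well above background on either array. Gja5, Akr1b7 and Nos1 were singled out after their values were seen.

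Of 7 smooth muscle and mesangial markers, 6 stood below 0 and 5 were within the scanner error of 0, with a median of -0.11, from Acta2, smooth muscle actin, at -0.35 and Myh11, smooth muscle myosin, at -0.27 to Tagln at -0.11, Pdgfrb at -0.09, Gata3 at -0.04 and Itga8 at 0.15. Their summed signal was 26214 units in TG+STZ and 27480 in WT+STZ, and no marker of the list was at 0. The part of these cells in the Ren1, Adcy5 and connexin values was not tested.

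Signalling proteins of the AT1 receptor showed no common direction. All 15 were measured, 6 above 0 and 9 below, with a median of -0.02, and none passed 1.5-fold. Arrb1, a beta-arrestin that binds activated receptors, was lowest at -0.27 ± 0.20, followed by Nox4, a kidney NADPH oxidase, at -0.24 ± 0.14. Itpr1, a calcium channel opened by inositol trisphosphate, was highest at 0.18, followed by Plcb4, a phospholipase C, at 0.16 ± 0.15. Gnaq, the G protein subunit through which AT1 receptors act, stood at 0.08.

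Aldosterone action lies downstream of angiotensin II in sodium balance. Of 9 measured genes, 7 stood below 0 and 2 above, with a median of -0.12, 6 were within the scanner error of 0, and none passed 1.5-fold. Hsd11b2, which inactivates glucocorticoids in aldosterone target cells, was lowest at -0.44 ± 0.20 (714 units in TG+STZ and 919 in WT+STZ). Scnn1b, a subunit of the epithelial sodium channel, stood at -0.37 ± 0.20. Sgk1, a kinase induced by aldosterone, was highest at 0.20 ± 0.20, and Tsc22d3, a steroid-induced gene, stood at 0.10. Cyp11b2, the aldosterone synthase of the adrenal gland, was not well above background. Of these genes, Hsd11b2 and Scnn1b are expressed mainly in the distal tubule and collecting duct, so their values were measured in RNA that held tubule transcripts.

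Kinins and natriuretic peptides are cleaved by ACE or neprilysin. Of 9 measured genes of these systems, 7 stood below 0 and 2 above, with a median of -0.07, 7 were within the scanner error of 0, and none passed 1.5-fold. Npr1, the receptor of atrial natriuretic peptide, stood at -0.33 ± 0.21 and Klkb1, plasma kallikrein, at -0.33 ± 0.20. At the other end, Kng2, a kininogen, stood at 0.08 and Npr2, the receptor of C-type natriuretic peptide, at 0.01. The kinin receptor genes Bdkrb1 and Bdkrb2 were not well above background on either array, nor was Nppc.

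Peptidases that share the brush border with ACE, aminopeptidase A and neprilysin had a median of 0.08, with 5 of 8 above 0, 3 below, 6 within the scanner error of 0 and none past 1.5-fold. Anpep led them, followed by Ggt1, which cleaves glutathione, at 0.14. Mep1b, a meprin subunit, was lowest at -0.22, followed by Xpnpep2, an aminopeptidase P, at -0.09. Anpep is also counted among the other renin-angiotensin genes.

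**Figure D3:**
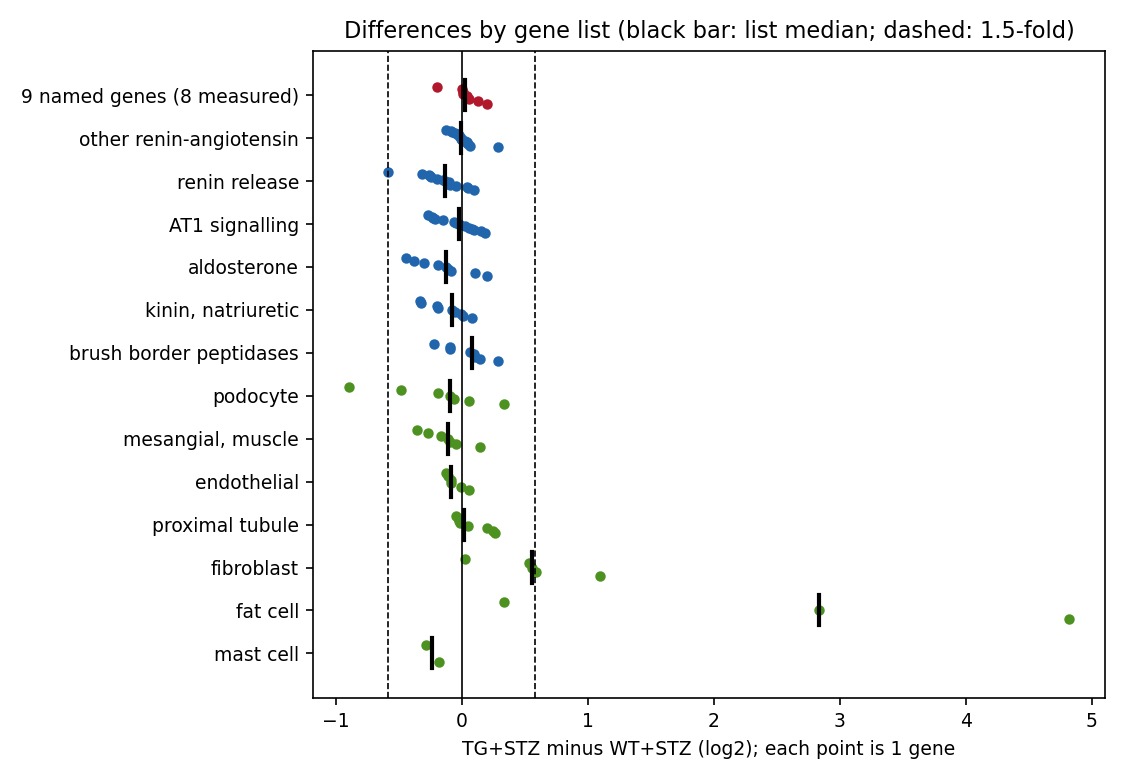
Difference TG+STZ minus WT+STZ (log2) of each measured gene by list, for the 8 measured renin-angiotensin genes (red), related pathway lists (blue) and cell type markers (green), with a black bar at each list's median and dashed lines at 1.5-fold. No red or blue point lies beyond the dashed lines, with Adcy5 at -0.58 just inside, whereas fibroblast and fat cell markers reach 1.096 and 4.82.

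Markers of the cell types that make these genes were read on the same arrays. Proximal tubule markers, the setting of Ace, Enpep, Mme and Anpep, had a median of 0.02 over 8 genes, 4 on each side of 0. They ran from Cubn at -0.04 and Lrp2 at -0.03 to Slc5a12 at 0.25 ± 0.14 and Slc22a6 at 0.26 ± 0.20, and Slc7a13 stood at 0.20. Their summed signal was 1014441 units in TG+STZ and 919599 in WT+STZ, and none was at 0. Podocyte markers had a median of -0.09, with 5 of 7 lower: Nphs1, which encodes nephrin, at -0.89 ± 0.20, beyond 1.5-fold, and Podxl, which encodes podocalyxin, at -0.19 among the lower ones, and Wt1, a podocyte transcription factor, at 0.06 among the higher. Their summed signal was 18336 units in TG+STZ and 22138 in WT+STZ. The part of these cells in the Enpep value, which lay on the other side of 0, was not tested.

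Endothelial markers, another setting of Ace, had a median of -0.08 with 5 of 6 lower, from Pecam1 at -0.12 and Tek at -0.10 to Ehd3 at -0.00 and Cdh5 at 0.06, and a summed signal of 14883 units in TG+STZ and 14613 in WT+STZ, a scaled log2 difference of -0.05. Fibroblast markers were higher, with a median of 0.56 and 5 of 5 above 0, namely Clec3b at 1.096 ± 0.24, Dpt at 0.59 ± 0.22, Mfap5 at 0.56, Col1a1 at 0.53 and Pdgfra at 0.03. Under normexp background correction their median was 0.17, with 4 above 0, and none passed 1.5-fold. Their summed signal was 3469 units in TG+STZ and 2679 in WT+STZ. The mast cell markers Kit and Tpsb2, the measured 2 of 5, stood at -0.28 and -0.18, the latter from 1 of its 2 probes. Their summed signal was 952 units in TG+STZ and 1074 in WT+STZ, most of it Kit, at 671 units in TG+STZ and 773 in WT+STZ. Mcpt4, of the same list, went the other way and was well above background in TG+STZ alone, while Cma1 and Cpa3 were so on neither array. The part of these cells in the renin-angiotensin values was not tested.

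**Figure D4:**
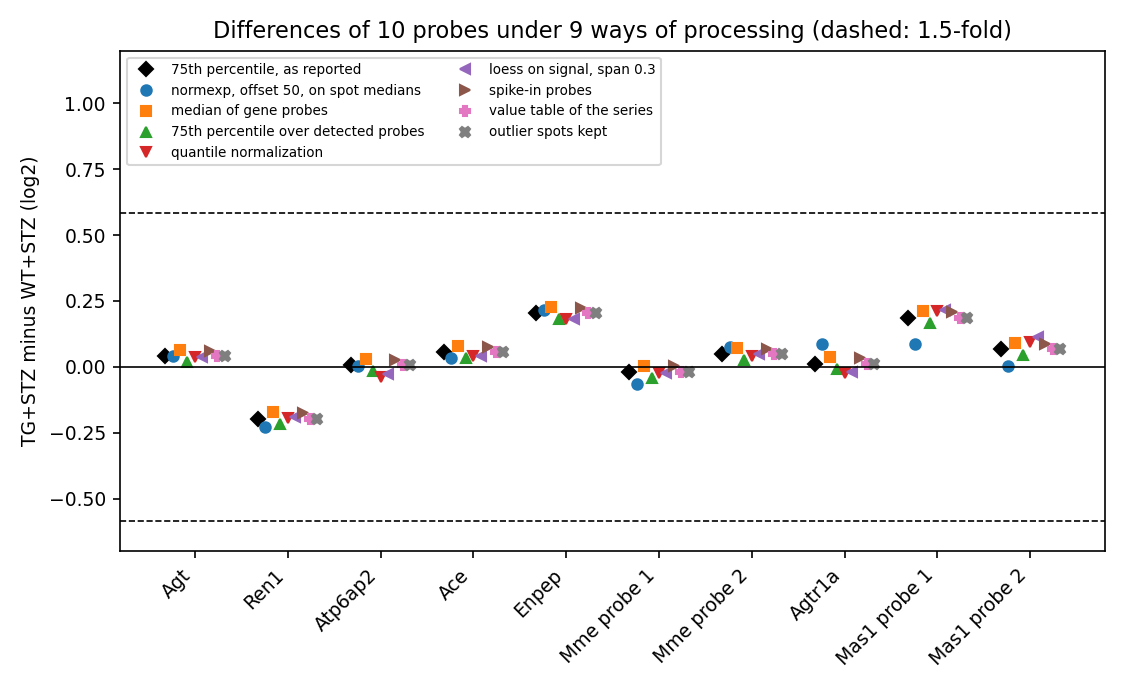
Difference TG+STZ minus WT+STZ (log2) of the 10 detected renin-angiotensin probes under the scaling used in the text (black diamonds) and 8 other ways of processing, with dashed lines at 1.5-fold. Ren1 stays between -0.23 and -0.17 and Enpep between 0.18 and 0.23, while Agtr1a, Atp6ap2 and the first Mme probe cross 0.

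The order of the differences among the detected genes was Ren1, then Atp6ap2, Agtr1a, Mme, Agt, Ace, Mas1 and Enpep from lowest to highest. Neighbours in that order were closer together than the scanner error, and the 5 genes from Atp6ap2 to Ace lay between 0.01 and 0.06. With 2 arrays, likeness of pattern across samples could not be measured, so no gene was matched to a member.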

How the data were processed

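Cy3-labelled RNA was hybridised to 1 Agilent array per group. The authors extracted spots with Agilent Feature Extraction, version 10.7.1.1 per the file headers and 10.3.1.1 per the submitters' processing notes; it subtracted background and corrected trends. The deposited intensity is that processed signal, with its error and flags. The deposited value table equalled it at all 44397 spots of each array. The array design names build mm9, and the gene table is GRCm38.p6, so no coordinates are given.

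Spots marked as outliers were left out (109 in TG+STZ, 114 in WT+STZ, none in the 11 probes), spots of a probe were averaged, and log2 signals were scaled to the 75th percentile of gene spots. Of 39429 probes, 26412 matched a RefSeq symbol. Detection required the flag for well above background on both arrays. Members and lists were chosen with earlier results of these data known. The text names all members, the 2 highest and 2 lowest genes of each list and genes past 1.5-fold; other named genes were chosen after their values were seen, and some genes taken by this rule are not reported here. The steps were tested on simulated data. Tools were limma 3.58.1 (in R 4.3.3), and in Python 3.11.15 pandas 2.3.3, numpy 2.4.6, statsmodels 0.14.6 and matplotlib 3.10.9.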

Additional observations from a re-analysis of the deposited data

How the results depend on the processing

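The 10 detected probes were recomputed under 8 other ways of processing: normexp background correction with an offset of 50 on spot medians, quantile normalization, loess with a span of 0.3, centring on the median or on spike-ins, the 75th percentile of detected probes alone, the deposited value table and outlier spots kept. No detected probe passed 1.5-fold under any of them, nor 2-fold as reported. Ren1 ran from -0.23 to -0.17, the Ren2 probe from -0.19 to -0.12 and Enpep from 0.18 to 0.23. At the outer ends of their ranges Ren1 and Enpep lay outside the scanner error of 0, as did the brighter Mas1 probe at 0.217. Agtr1a, Atp6ap2 and the first Mme probe took both signs. Agtr1b ran from -0.21 to 1.03 and is the 1 probe counted past 1.5-fold with no filter on dim probes or with the laxer detection flag; it is not well above background on either array. The medians of the other renin-angiotensin genes and of AT1 signalling also took both signs, from -0.03 to 0.02 and from -0.04 to 0.01. Those of renin release, aldosterone and kinin genes stayed below 0 and that of brush border peptidases above it under every alternative run. Counts over all probes depended on background correction: under normexp 238 were at least 1.5-fold higher and 299 lower, against 584 and 631 as reported. No paired analysis was possible because each group has 1 array. The number of arrays limits the precision.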
